A study of Sus scrofa with 18 samples.

Results

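LIN28A, LIN28B and 7 other genes known for high levels in early development, TRIM71, HMGA1, HMGA2, ARID3A, IGF2BP1, IGF2BP2 and IGF2BP3, were followed in the whole brain of pig fetuses on gestation days (GDs) 45, 60 and 90. The 9 genes were chosen by name from 31908 genes counted. Of these, 7 carried their name in the count table. HMGA1 and HMGA2 had no name there and were found by identifier. HMGA1 (ENSSSCG00000032242) was named by a separate table of gene names, and HMGA2 was taken to be ENSSSCG00000034610, whose exons overlap 6 of 6 RefSeq exons of HMGA2 on the same strand of chromosome 5. A filter on low counts left 8 of the 9 for testing, among 16325 genes in all; LIN28A did not pass it. IGF2BP1 passed through its counts on GDs 45 and 60, since its counts on GD90 were close to 0.

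The fetuses came from Landrace x Large White gilts bred by artificial insemination to the LR-M6 line. None received a treatment. Each day had 6 fetuses, 3 females and 3 males, and each library was made from poly(A) RNA of 1 whole brain. The 6 fetuses of a day fell into 3 litters, with 1 female and 1 male each, if fetuses of the same day with the same litter size are litter mates. The labels identify no dam, and each day is represented by these 3 litters alone. Total counts ran from 15118843 to 19729783 per library, with a median of 16413097, and 4 libraries had a second run that was added to the first.

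LIN28A and LIN28B are RNA-binding proteins that bind precursors of the microRNA let-7 and keep mature let-7 from being made. Let-7 in turn binds the 3′ untranslated regions of its target messages and lowers their translation and stability, and LIN28, HMGA2, the IGF2BP genes, TRIM71 and ARID3A are among its known targets in mammals. In the developing brain, neural progenitors are known to lose LIN28, HMGA2 and IGF2BP1 as mature let-7 accumulates, and HMGA2 and IGF2BP1 are known for their part in the change of progenitors from fetal to adult properties.

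The sequences at issue are the let-7 family, which shares a seed (bases 2 to 8, in capitals), and the matches to it in the messages of these genes. RefSeq annotates 10 pig genes of this family on Sscrofa11.1, giving 8 different mature sequences, and 8 of 8 had the same seed. Read 5′ to 3′, 4 of them show how the family varies outside the seed.
let-7a: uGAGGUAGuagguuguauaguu
let-7d-5p: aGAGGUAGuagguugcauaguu
let-7e: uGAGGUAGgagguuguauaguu
miR-98: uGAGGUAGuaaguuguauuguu
The 2 copies of let-7a are at chr9:49152637-49152658 on the minus strand and chr3:43465677-43465698 on the plus strand. The other 3 are at chr3:43468511-43468532 (plus), chr6:58332091-58332112 (minus) and chrX:46302436-46302457 (minus). Mature let-7 was not measured in these libraries. The 8 precursor genes of this family with a row in the count table held 0 to 6 counts in any library, and the most read of them, let-7d, had 31 counts over the 18 libraries.

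A match to the seed is CTACCTC (7 bases) and, followed by A, CTACCTCA (8 bases, counted among the 7-base matches too). Each was searched on the strand of the gene, over all exons, and the matches of 8 of the 9 genes are given here, ARID3A aside. HMGA2 held 6 matches of 7 bases, of which 4 lay after the RefSeq stop codon, in the last exon. IGF2BP2 and LIN28B each held 2, and HMGA1, IGF2BP3 and TRIM71 each held 1. After the RefSeq stop codon lay 1 match in each of IGF2BP2, LIN28B, HMGA1 and IGF2BP3, while that of TRIM71 lay before it. HMGA2, LIN28B, IGF2BP2 and IGF2BP3 each held 1 match of 8 bases, after the RefSeq stop codon. No match was found in LIN28A or IGF2BP1, whose exons in the annotation used for counting were 755 and 2413 bases long. Their last exons had 298 and 447 bases. In every gene, untranslated sequence beyond the annotated end was not searched, so a missing match is not evidence that the message has none. These 4 matches of 8 bases, in capitals after the 14 bases before them, were as follows.
HMGA2: ccaacattcaatttCTACCTCA
LIN28B: cctggttgggacgtCTACCTCA
IGF2BP2: acacacaaaaaaagCTACCTCA
IGF2BP3: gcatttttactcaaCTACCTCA
They lie at chr5:30329534-30329555 (plus), chr1:71295246-71295267 (plus), chr13:123486097-123486118 (minus) and chr9:92106465-92106486 (minus). Over the last 2000 exonic bases of the 13275 genes tested that have that many, 4.35% held the 8-base match and 12.2% the 7-base match. Of the 4 matches printed above, those of LIN28B, IGF2BP2 and IGF2BP3 stood within that window, while that of HMGA2 lay further from the end. A match is a description of the sequence, not evidence of binding.

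The libraries read as brain. The summed level of 9 neuron markers ran from 6360 to 10900 CPM (counts scaled to the size of the library), against 4.12 to 22.1 CPM for 5 markers of skeletal muscle and 2.25 to 37.6 CPM for 4 of pancreas. Levels of cell type markers moved with age. The summed level of 5 markers of cycling cells was 424 to 466 CPM on GD45, 178 to 222 on GD60 and 99.2 to 131 on GD90, and all 5 fell between GDs 45 and 90. Of 7 neural progenitor markers in the table, all 7 fell over the same span, with summed levels of 1980 to 3630, 1500 to 2010 and 1120 to 1480 CPM. Larger shifts were seen in other lists. The sum of 4 intermediate progenitor markers went from 98.2 to 164 CPM on GD45 to 1.32 to 7.81 CPM on GD90, and all 4 fell. That of 5 oligodendrocyte markers went from 62.9 to 83.5 CPM to 1860 to 3170 CPM, and that of 4 astrocyte markers from 126 to 249 CPM to 1320 to 1710 CPM, and all 5 and all 4 rose. SOX2 and MKI67 had no row under their names. In whole brain, fewer cells of a type and less RNA per cell cannot be told apart, and the part of these shifts in the changes below was not tested.

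The male of GD45 from the litter of 8 stood apart. Among the 6 fetuses of that day it had the highest summed markers of neural progenitors (3630 CPM, where the other 5 had 1980 to 2240), erythroid cells (794 against 250 to 364), choroid plexus (1770 against 892 to 1330) and endothelium (516 against 317 to 374). The neuron (8910 CPM), microglia (124 CPM) and pancreas sums (31.1 CPM) of this male were also the highest of the day. It had the lowest sums of astrocyte (126 CPM), mesenchyme (951 CPM), intermediate progenitor (98.2 CPM) and skeletal muscle markers (4.12 CPM). Its library size after scaling was 12865616, below its total of 15170183. Without it, the log2 fold changes from GD45 to GD60 were -0.49 for HMGA1, -1.04 for HMGA2, -1.54 for IGF2BP1, -0.82 for IGF2BP2 and -0.47 for IGF2BP3, and all 5 were called (edgeR adjusted p of up to 0.0192). Of the day comparisons averaged over the sexes, the call of TRIM71 between GDs 45 and 90 was the single one that its removal ended.

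LIN28A, the form known from stem cells and the early embryo (chr6:83806122-83818631, plus strand), was practically unread. It had 1 count in 1 female of GD45 and 0 counts in the other 17 libraries. A library at 0 allows up to 3 counts, or 0.153 to 0.233 CPM depending on the library. The exons counted for LIN28A hold 755 bases, with a last exon of 298 bases. Reads from any message beyond them were not counted.

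LIN28B, its paralog (chr1:71166786-71296861, plus strand), was read at 2 to 19 counts per library. Its lowest, median and highest levels were 0.627, 0.834 and 1.06 CPM on GD45, 0.313, 0.507 and 0.718 on GD60, and 0.133, 0.626 and 0.719 on GD90. The days overlapped, with the higher values on GD45. The difference between GDs 60 and 45 was -0.66 ± 0.32 (log2 fold change ± standard error, edgeR adjusted p = 0.172), and that between GDs 90 and 45 was -0.61 ± 0.32 (edgeR adjusted p = 0.111). Neither passed the threshold of 0.05. Between GDs 90 and 60 the difference was 0.05 ± 0.33 (edgeR adjusted p = 0.924). At these counts a change of the size seen could not be told from the spread between fetuses.

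The LIN28B counts were also unevenly placed. Of 182 counts on its exons in the exon table, 70 fell on a first exon of 34 bases, 78 on the last exon of 2015 bases, and 34 on the other 3 exons. The 34-base exon held 33, 17 and 20 counts on GDs 45, 60 and 90, and the other exons 51, 30 and 31.

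TRIM71, a RING-finger protein and a classical let-7 target (chr13:18761445-18830563, plus strand), was the single gene of the group that was higher late. It had 3 to 29 counts per library. The lowest, median and highest of its levels were 0.51, 0.682 and 0.889 CPM on GD45, 0.192, 0.576 and 0.778 on GD60, and 0.839, 0.993 and 1.79 on GD90. All 6 fetuses of GD90 lay above all 6 of GD60, and overlapped those of GD45. TRIM71 rose by 1.08 ± 0.29 between GDs 60 and 90 (edgeR adjusted p = 0.00654), where 21.4% of all genes tested rose. Against GD45 it was 0.74 ± 0.28 higher (edgeR adjusted p = 0.0337), and that call was lost in 12 of 28 alternative analyses. Both that took account of litter were among them, with counts summed per litter (0.76, edgeR adjusted p = 0.0616) and with litter as a random block (0.71, limma voom adjusted p = 0.0504). So were those without the female of GD45 from the litter of 16, the male from the litter of 17 or of 8, or either fetus of GD90 from the litters of 11 and 18, which left 0.61 to 0.73 (edgeR adjusted p up to 0.0977).

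The TRIM71 counts did not cover the message evenly. Its first exon, 1559 bases long, took 212 of 234 exon counts (90.6%). Exons 2 and 3 had 1 count each, and the last exon, 1452 bases long, had 20. On GDs 45, 60 and 90 the first exon held 61, 48 and 103 counts and the other 3 exons together 9, 6 and 7. The first exon rose between GDs 60 and 90 on its own (log2 fold change 1.02, edgeR adjusted p = 0.0363 over 80134 exons, of which 6.48% rose). The rise in TRIM71 was thus a rise in reads on its first exon, and no change was detectable on the rest of the message at 6 to 9 counts a day.

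**Figure D1:**
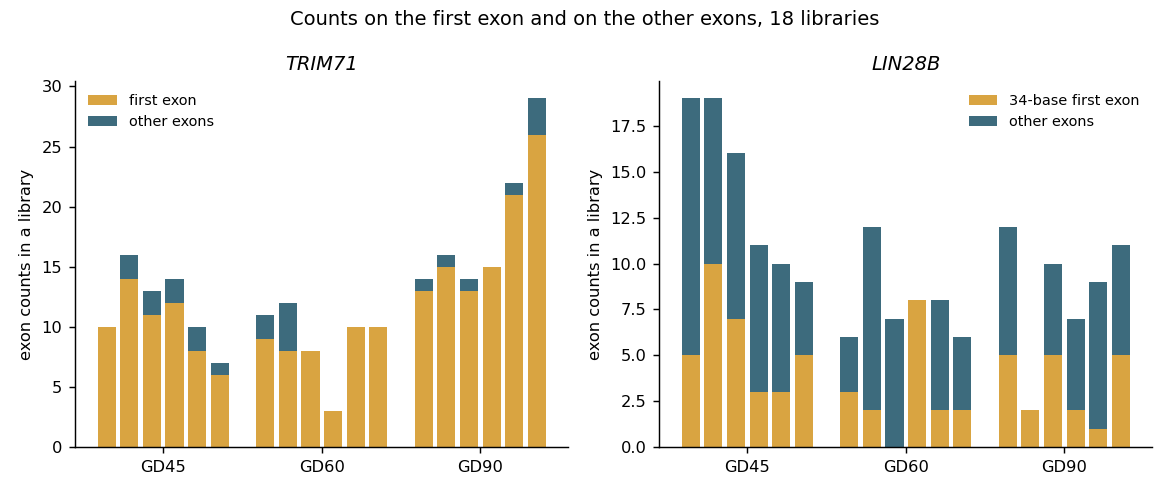
Exon counts of TRIM71 (left) and LIN28B (right) in each of the 18 libraries, grouped by gestation day, split into the first exon (gold) and all other exons (blue); within a day the 3 females stand before the 3 males. The TRIM71 bars are almost wholly first exon on every day (212 of 234 counts), and in LIN28B a 34-base exon holds 70 of 182 counts.

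HMGA1 and HMGA2 are small chromatin proteins that bind AT-rich DNA by their AT-hooks. HMGA1 (chr7:30320454-30329409, plus strand) was the most abundant gene of the group. In CPM, its lowest, median and highest levels were 223, 256 and 326 CPM on GD45, 155, 173 and 220 on GD60, and 92.2, 114 and 138 on GD90. Each day lay entirely below the one before. HMGA1 fell by 0.58 ± 0.10 on the log2 scale between GDs 45 and 60 (edgeR adjusted p = 0.000887), where 7.37% of genes tested fell, and fell by 0.66 ± 0.10 between GDs 60 and 90 (edgeR adjusted p = 7.1e-05), where 20.9% fell.

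HMGA2 (chr5:30187970-30332703, plus strand), which is known to keep fetal neural stem cells dividing, fell more steeply. Its levels (lowest, median and highest) were 8.75, 12.6 and 20.4 CPM on GD45, 5.14, 5.99 and 6.75 on GD60, and 0.331, 1.34 and 1.98 on GD90. Again no fetus overlapped the previous day. The mean was 13.9 ± 5.09 CPM (SD, n = 6), then 5.96 ± 0.622, then 1.28 ± 0.626. HMGA2 fell by 1.22 ± 0.27 between GDs 45 and 60 (edgeR adjusted p = 0.00519) and fell by 2.23 ± 0.31 between GDs 60 and 90 (edgeR adjusted p = 2.5e-05). Over the whole span it was 10.9-fold lower and ranked 42 by size of fall among the 16325 genes tested. Of its 1827 exon counts, 1572 fell on the last exon, the 3224-base exon that holds 4 of its let-7 seed matches; that exon held 1076, 423 and 73 counts on the 3 days.

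ARID3A, a DNA-binding protein with an ARID domain that is known as a let-7 target in fetal blood progenitors (chr2:77431064-77464628, minus strand), did not pass the test between any days. The lowest, median and highest fetus had 3.65, 5.14 and 6.39 CPM on GD45, 3.07, 4.64 and 7.09 on GD60, and 2.25, 4.41 and 5.99 on GD90. The days overlapped throughout. From GDs 45 to 90 the difference was -0.32 ± 0.25 (edgeR adjusted p = 0.294). Leaving out the female of GD90 from the litter of 11 made it -0.59 (edgeR adjusted p = 0.0418). The other 27 of 28 alternative analyses left it uncalled, so a call appeared only on removing this 1 library.

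IGF2BP1, IGF2BP2 and IGF2BP3 are RNA-binding proteins that hold target messages, IGF2 and MYC among them, in stable or localized particles, and they are known as oncofetal proteins. All 3 fell in both intervals. IGF2BP1 (chr12:25196969-25243272, plus strand) had the steepest fall of the group. Its counts per library were 35 to 86 on GD45, 9 to 29 on GD60 and 0 to 6 on GD90, and its lowest, median and highest levels were 1.79, 3.75 and 5.83 CPM, then 0.47, 1.35 and 1.82, then 0, 0.0636 and 0.352. GDs 45 and 60 overlapped, since the lowest fetus of GD45 lay just under the highest of GD60, while all fetuses of GD90 lay below all others. IGF2BP1 fell by 1.66 ± 0.38 between GDs 45 and 60 (edgeR adjusted p = 0.0056) and fell by 3.46 ± 0.56 between GDs 60 and 90 (edgeR adjusted p = 9.97e-05). It entered the test through GDs 45 and 60 and was near 0 on GD90, so its calls against GD90 are a description. Allowing 3 counts per library on GD90, the fall in females was at least 6.87-fold from GD60 and 17.3-fold from GD45. Summed over the 6 fetuses of a day, IGF2BP1 had 384, 122 and 11 counts. The ratio of GD45 to GD90, corrected for library size, was 32.4 (exact 95% interval 17.9 to 65.5, for counting error only). Of the 11 counts of GD90, 6 came from 1 male of the litter of 10. This male had the highest sum of 4 intermediate progenitor markers on that day (7.81 CPM, against a median of 2.16). It was also the highest in cycling cell (131 CPM), oligodendrocyte (3170), astrocyte (1710), mesenchyme (1580), skeletal muscle (22.1) and pancreas markers (13). Its neuron sum was the lowest (9070 CPM), and its other sums, neural progenitors among them (1290 CPM), lay within the range of the day. Their bearing on its IGF2BP1 was not tested. Without this male the log2 fold change between GDs 60 and 90 was -4.09 (edgeR adjusted p = 8.21e-05), and that between GDs 45 and 90 was -5.75 in place of -5.12, so its removal moved the fold by 1.55 times.

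IGF2BP2 (chr13:123485624-123650039, minus strand) stepped down on both later days. Levels of it (lowest, median and highest) were 62.6, 75.6 and 93.6 CPM on GD45, 41, 46.2 and 57.8 on GD60, and 15.8, 16.2 and 17.8 on GD90. No day overlapped the next, and the 6 fetuses of GD90 lay within 2 CPM of each other (16.5 ± 0.731, SD). IGF2BP2 fell by 0.76 ± 0.10 between GDs 45 and 60 (edgeR adjusted p = 8.08e-05) and fell by 1.50 ± 0.10 between GDs 60 and 90 (edgeR adjusted p = 1.48e-08).

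IGF2BP3 (chr9:92104847-92272211, minus strand) had the smallest fall of the 3. Its lowest, median and highest levels were 14.3, 15.7 and 19.7 CPM on GD45, 9.98, 11.4 and 15.9 on GD60, and 4.33, 5.8 and 7.75 on GD90. GDs 45 and 60 overlapped through 1 female of GD60, and GD90 lay below both. IGF2BP3 fell by 0.47 ± 0.13 between GDs 45 and 60 (edgeR adjusted p = 0.0188) and fell by 1.01 ± 0.13 between GDs 60 and 90 (edgeR adjusted p = 1.55e-05). The first of these calls was lost in 4 of 28 alternative analyses, with edgeR adjusted p-values of up to 0.0668; these were litter sums and the fits without the female of GD45 from the litter of 8 or the female of GD60 from the litter of 13 or of 15.

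**Figure D2:**
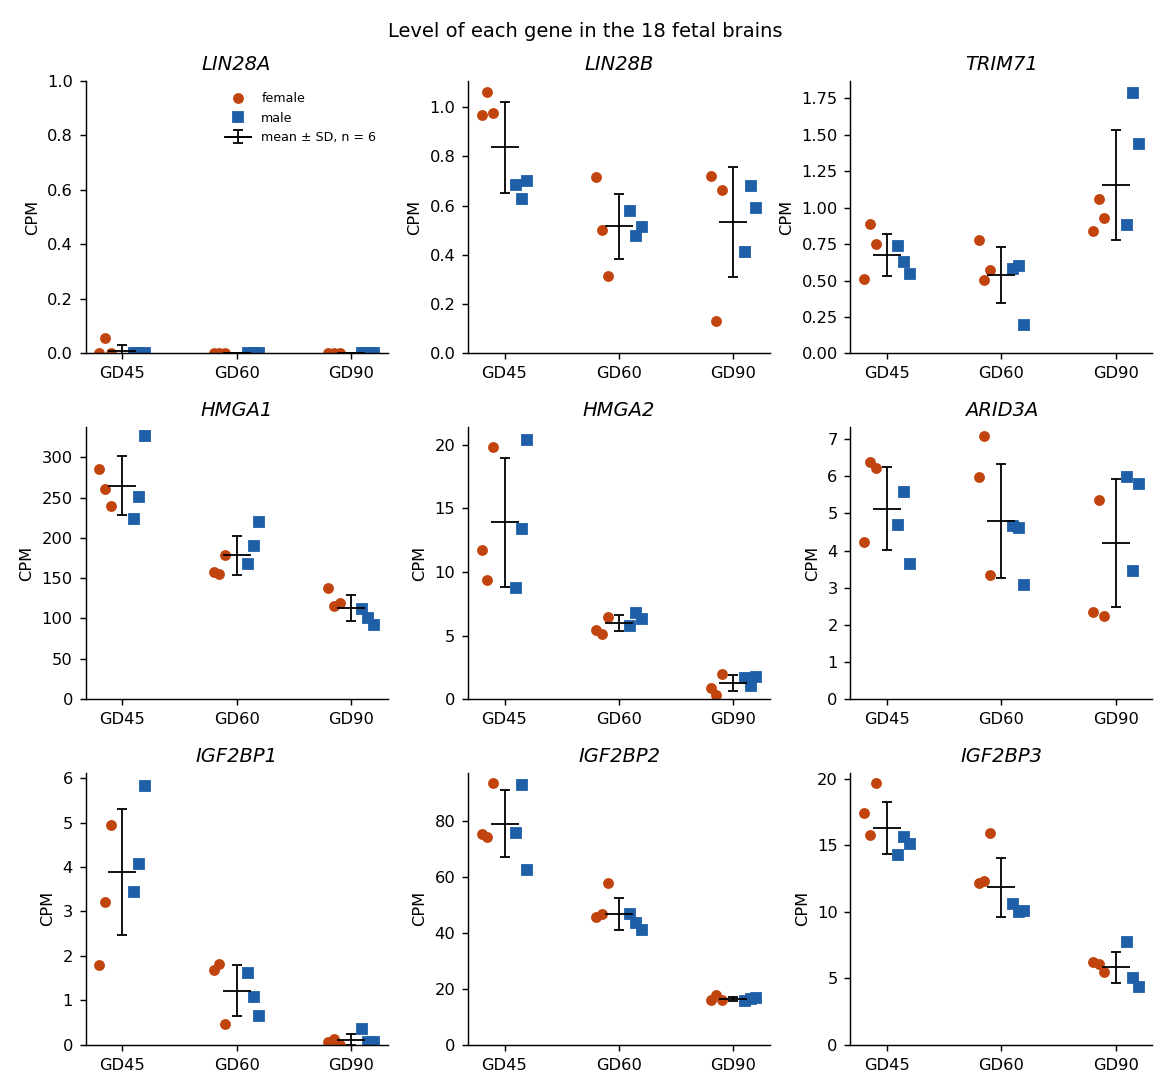
Level of each of the 9 genes in CPM (linear axis from 0, a different scale in each panel) by gestation day; each point is 1 fetal brain, females as orange circles and males as blue squares, with the mean and SD of the 6 fetuses in black. HMGA1, HMGA2, IGF2BP1, IGF2BP2 and IGF2BP3 step down on both later days, LIN28A is at 0 in 17 of 18 libraries, and TRIM71 is highest on GD90.

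Counted together, 5 of the 8 genes tested fell between GDs 45 and 60 and none rose, while 7.37% of all genes tested fell and 9.35% rose. Between GDs 60 and 90, 5 fell and 1 rose, against 20.9% and 21.4% of all genes. From GDs 45 to 90, 5 fell and 1 rose, against 29.3% and 28.3%. The same 5 genes, HMGA1, HMGA2 and the 3 IGF2BP genes, fell in each comparison, which share days. In those 5, all fetuses of GD90 lay below all of GD45, as in 16.4% of all genes tested. IGF2BP1 is 1 of the 5, and it passed the filter through GDs 45 and 60 alone. The median log2 fold change of the 8 genes was -0.62, -0.84 and -1.36 in the 3 comparisons, beside -0.007, -0.01 and -0.026 over all genes tested. The genes were chosen as ones known to be lost with age, so these counts are a description.

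**Figure D3:**
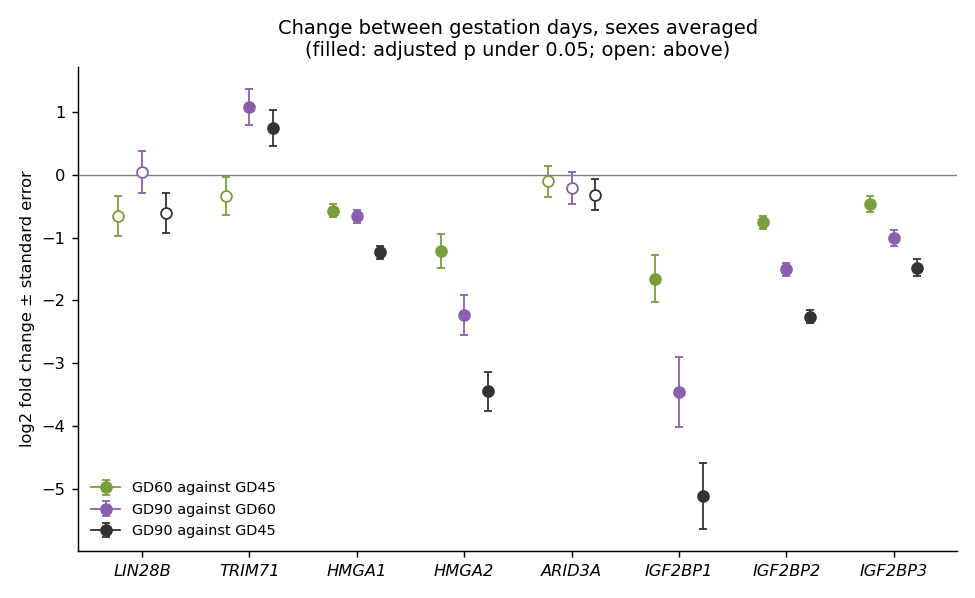
Log2 fold change between gestation days, sexes averaged, for the 8 genes tested; bars are standard errors, filled circles have an edgeR adjusted p under 0.05 and open circles do not. Falls are deepest in IGF2BP1 (-1.66, -3.46 and -5.12) and HMGA2 (-1.22, -2.23 and -3.45), while LIN28B and ARID3A have open circles throughout. On GD90 IGF2BP1 had 0 to 6 counts per library.

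Levels could be compared between genes only per length of exon. On that scale, in CPM per kilobase, HMGA1 was first on all 3 days (142, 95.5 and 60.4) and IGF2BP2 second (11.3, 6.68 and 2.35), and neither overlapped its neighbours in the order. On GD45, IGF2BP3 (2.4), HMGA2 (2.19), ARID3A (1.84) and IGF2BP1 (1.61) followed, each overlapping the next. LIN28B (0.33) and TRIM71 (0.204) came after them and overlapped each other. On GD90 the order had changed: ARID3A (1.5) and IGF2BP3 (0.858) overlapped, then came TRIM71 (0.349), LIN28B (0.21), HMGA2 (0.202) and IGF2BP1 (0.0464), each overlapping the next. LIN28A, with 1 count on GD45 and 0 on the later days, came last on each, and on GD90 IGF2BP1 overlapped it, with its lowest fetus at 0. The lengths cover all annotated exons, over which counts were unevenly spread, so the order also depends on how complete each annotation is. The annotated last exons of LIN28A and IGF2BP1 had 298 and 447 bases, and that of HMGA2 had 3224.

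Each sex was also tested on its own. Between GDs 45 and 60, HMGA1 and IGF2BP2 fell in females (2 of 8 called, against 7.22% of genes tested in either direction) and IGF2BP1 and IGF2BP2 fell in males (2 of 8, against 5.61%). From GDs 60 to 90, HMGA2, IGF2BP1, IGF2BP2 and IGF2BP3 fell in females (4 of 8, against 27.1%). In males HMGA1, HMGA2 and the 3 IGF2BP genes fell and TRIM71 rose (6 of 8, against 34.5%). A gene called in 1 sex and not in the other is not thereby shown to differ between them.

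None of the 8 genes was called between males and females on GD45, GD60 or GD90 by edgeR (0.0919%, 0.098% and 0.098% of all genes tested were), and none by DESeq2. IGF2BP3 on GD60 was the single case with an unadjusted p under 0.05, with a log2 fold change of -0.40 ± 0.18 for males against females (edgeR adjusted p = 0.779). LIN28B on GD45 ran from 0.969 to 1.06 CPM in the 3 females and from 0.627 to 0.7 CPM in the 3 males, a difference of -0.57 ± 0.43 that was not called (edgeR adjusted p = 0.995). Within litters, male and female differed in 1 direction in all 3 litters for 8 of 24 pairings of gene and day. With 3 litters, a shared direction arises often by chance, and its share over all genes was not counted. These pairings are thus a description, not a sex difference. The female was the higher in LIN28B on GD45, HMGA1 on GD90, IGF2BP3 on GD45 and GD60 and ARID3A on GD60, and the male in HMGA1 on GD60, IGF2BP1 on GD45 and TRIM71 on GD90. A fit with litter as a fixed block, chosen after seeing the data and with 6 residual degrees of freedom, called none of the 8 genes between the sexes on any day, where it called 9, 9 and 10 of all genes tested. Its lowest adjusted p was that of HMGA1 on GD90 (log2 fold change -0.29, unadjusted p = 0.0647, edgeR adjusted p = 0.349).

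The test of a different change with age in the sexes called none of the 8 genes in either interval, by edgeR or by DESeq2. Over all genes edgeR called 0% in both intervals. DESeq2 called 0 genes in the first interval and 268 in the second, and 333 and 3232 genes had an unadjusted edgeR p under 0.05. Of the 8, HMGA1 alone had such a p. Its log2 fold change between GDs 60 and 90 was -0.93 ± 0.15 in males and -0.40 ± 0.15 in females, a difference of -0.53 ± 0.20 (edgeR adjusted p = 0.215). Without the male of GD45 from the litter of 8, and without both fetuses of that litter, this 1 gene was called. The share of all genes called in those fits was not counted, so this call is a description. With litter as a fixed block the difference was -0.52 (edgeR adjusted p = 0.219).

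Fetuses of a day also differed by litter. On GD45 the 2 fetuses of the litter of 8 had the highest HMGA2 of all, at 19.8 CPM in the female and 20.4 in the male, where the other 4 ran from 8.75 to 13.4. They also had the highest IGF2BP1, at 4.95 and 5.83 CPM against 1.79 to 4.07. Their brains were the lightest of the day, labelled 0.6653 and 0.7135 where the other 4 were labelled 1.55 to 1.86, in a unit the labels give as mg. Without both fetuses, the log2 fold change from GD45 to GD60 was -0.85 for HMGA2 (edgeR adjusted p = 0.0257) and -1.34 for IGF2BP1 (edgeR adjusted p = 0.0258), so both calls stood. The male of this litter is the library that stood apart in its markers, with 3630 CPM of summed neural progenitor markers where the female had 2240. Their cycling cell markers lay within the range of the other 4 fetuses, at 462 CPM in the female. Whether brain size or litter bears on the difference was not tested.

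On GD60 the litter of 8 went the other way for IGF2BP1. Its female and male had 0.47 and 0.64 CPM, below the 1.08 to 1.82 CPM of the other 4. Their HMGA2, at 6.43 and 6.27 CPM, lay within the range of the others. The female of this litter had the highest IGF2BP2 of the day, 57.8 CPM, against 41 to 47 CPM in the other 5, and the highest IGF2BP3, 15.9 CPM.

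**Figure D4:**
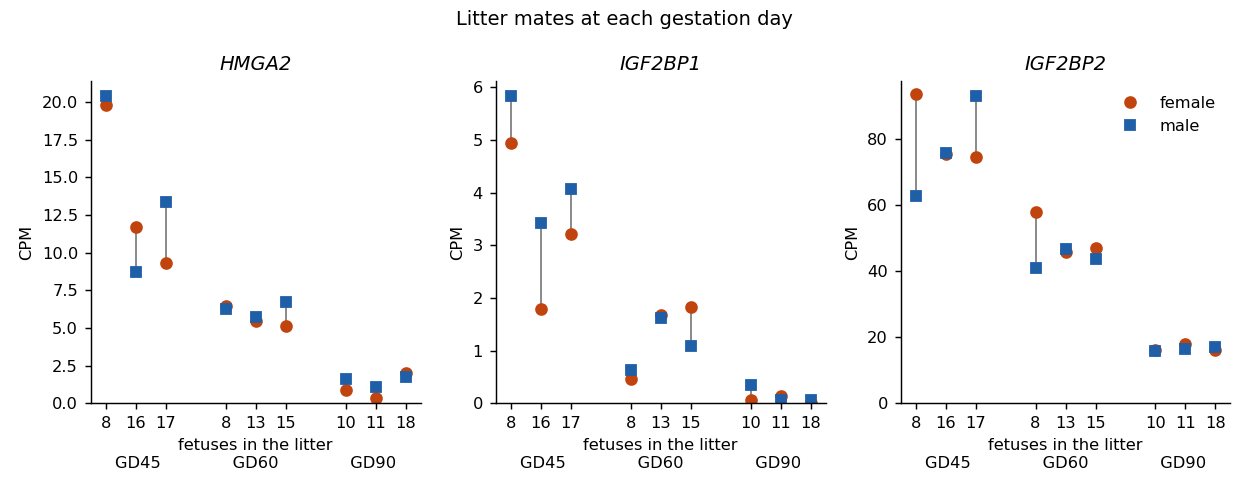
HMGA2, IGF2BP1 and IGF2BP2 in CPM (linear axis from 0) in the female and male of each litter, joined by a line and ordered by day and by the number of fetuses in the litter. The GD45 litter of 8 stands above the other litters of that day in HMGA2 (19.8 and 20.4 CPM) and IGF2BP1 (4.95 and 5.83 CPM), and the GD60 litter of 8 has the lowest IGF2BP1 of its day (0.47 and 0.64 CPM).

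The exon table holds 111 exons of these genes, of which 23 passed the filter on low counts. Between GDs 45 and 90, 16 of the 23 fell and none rose, where 15.3% of 80134 exons tested fell. Those 16 were 8 of 9 exons tested in IGF2BP2, 4 of 5 in HMGA1, 2 of 2 in HMGA2, 1 of 1 in IGF2BP1 and 1 of 5 in ARID3A. The ARID3A exon was number 3, with 47, 42 and 14 counts on the 3 days (log2 fold change -1.84, edgeR adjusted p = 0.0298), while its last exon held 174, 166 and 158. No exon of LIN28A, LIN28B or IGF2BP3 passed the filter. The exon table held 496 counts of IGF2BP3, against 3454 in the gene table, and 3182 of IGF2BP2, against 14546. Counts fell on 16 of the 27 exons of IGF2BP2, so its 9 tested exons stand for only part of its reads.

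The machinery that makes and uses let-7 was described by a list of 17 genes, of which 16 were in the table. From GDs 45 to 60 none of the 16 was called. Between GDs 60 and 90, 7 fell and none rose, and between GDs 45 and 90, 9 fell, none rose and 7 did not pass, where 20.9% and then 29.3% of all genes tested fell and 21.4% and then 28.3% rose. The median log2 fold change over the whole span was -0.38, beside -0.026 over all genes tested. The largest falls were in AGO4, an Argonaute (-1.04 ± 0.11, edgeR adjusted p = 4.28e-07), TUT4, which adds uridines to the let-7 precursors held by LIN28 (-0.92 ± 0.15, edgeR adjusted p = 4.63e-05), and DGCR8, the RNA-binding partner of DROSHA (-0.75 ± 0.10, edgeR adjusted p = 5.89e-06). DICER1, which cuts the precursor to its mature length, was at 55.6, 54.7 and 46.4 CPM on the 3 days and was not called (-0.28 ± 0.16, edgeR adjusted p = 0.141).

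Of 24 other genes known as let-7 targets, 23 were tested. From GDs 45 to 60, 7 fell and none rose, where 7.37% of all genes fell and 9.35% rose. Between GDs 60 and 90, 11 fell and 2 rose (20.9% and 21.4% of all genes), and between GDs 45 and 90, 13 fell and 2 rose (29.3% and 28.3%), with a median of -0.60 beside -0.026 over all genes tested. The largest falls were in E2F2, a transcription factor of the G1 to S transition (-2.57 ± 0.16, edgeR adjusted p = 7.55e-10), DNA2, a helicase and nuclease of DNA replication (-1.86 ± 0.17, edgeR adjusted p = 1.1e-07), and PLAGL2, a zinc-finger transcription factor (-1.44 ± 0.14, edgeR adjusted p = 2.69e-07). The larger of the 2 rises was in FAS, a death receptor (1.39 ± 0.23, edgeR adjusted p = 7.95e-05). HAND1 had 0 counts. E2F2 and DNA2 also serve the cell cycle, and all 5 markers of cycling cells fell over the same span; their part was not tested.

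The last list held 16 genes tied to fetal growth or to the HMGA2 and IGF2BP proteins, of which 12 were tested. From GDs 45 to 90, 5 fell and 4 rose, with a median of 0.01, beside 29.3%, 28.3% and -0.026 for all genes tested. The list thus moved in both directions, and its members are given as single genes. The falls were led by DLK1, an imprinted fetal growth gene (-1.91 ± 0.30, edgeR adjusted p = 4.37e-05), PLAG1 (-1.35 ± 0.51, edgeR adjusted p = 0.0304) and PLAGL1 (-0.76 ± 0.15, edgeR adjusted p = 0.000317), both zinc-finger transcription factors. The rises were led by CDKN2B, a cyclin-dependent kinase inhibitor next to CDKN2A, which HMGA2 is known to lower in neural stem cells (1.49 ± 0.35, edgeR adjusted p = 0.00162), BTRC (0.61 ± 0.13, edgeR adjusted p = 0.000539) and CD44 (0.58 ± 0.22, edgeR adjusted p = 0.0347), whose messages are known cargo of IGF2BP proteins. CDKN2B was at 0.294, 0.547 and 0.84 CPM on the 3 days. IGF2, H19 and CDKN2A had no row under those names.

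**Figure D5:**
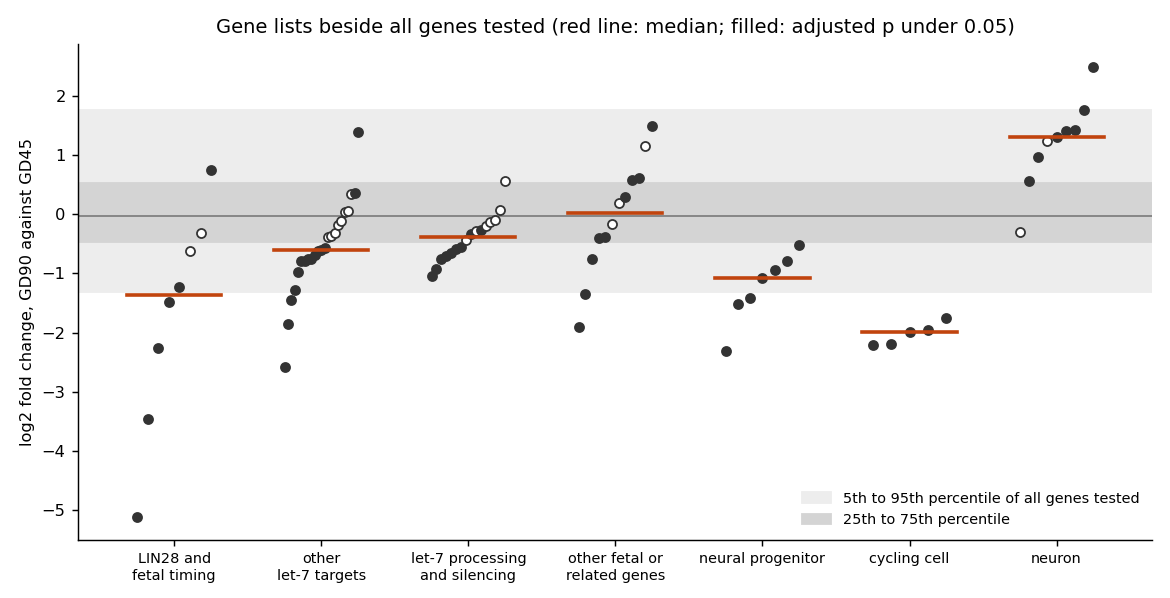
Log2 fold change between GDs 45 and 90 of each tested gene of 7 lists, with the median of each list as a red line; filled points have an edgeR adjusted p under 0.05, and the grey bands hold the central genes among all 16325 tested (from -1.31 to 1.75 for the 5th to the 95th percentile, and from -0.46 to 0.53 for the 25th to the 75th). The medians of the LIN28 and fetal timing genes (-1.36), the other let-7 targets (-0.60) and the let-7 machinery (-0.38) lie below the median of all genes. So do those of neural progenitor (-1.08) and cycling cell markers (-1.99). The median of the other fetal or related genes (0.01) lies near that of all genes, and that of neuron markers (1.31) lies above it.

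Genes with a seed match were called about as often as genes at large. Of 577 genes tested with an 8-base match in their last 2000 exonic bases, 30% fell and 26.7% rose between GDs 45 and 90, beside 29.3% and 28.3% of all genes tested. Between GDs 60 and 90, 23.2% of them fell and 19.6% rose, beside 20.9% and 21.4%. This grouping was made after the values of the genes above had been seen, and it takes no account of whether a site is conserved or lies in an untranslated region. The 577 genes came from the 13275 with at least 2000 exonic bases, while the shares beside them cover all 16325 genes tested. The part of let-7 was not tested.

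For each of the 8 genes, the 3 named genes with the most similar profile were taken by Pearson's r of log2 CPM over the 18 libraries, which mostly follows the 3 days they share. HMGA1 was most like PIMREG (r = 0.985), VIM (0.985) and UBE2C (0.983), and IGF2BP1 most like CENPF (0.978), POLE (0.968) and EPB41 (0.967). HMGA2 was most like ZBED5 (0.976), NCAPG2 (0.974) and GGA2 (0.959). IGF2BP2 was most like SMARCD1 (0.99), NONO (0.987) and NEUROD4 (0.983), and IGF2BP3 most like MED17 (0.969), CTBP2 (0.963) and RND3 (0.957). TRIM71 was most like NTNG1 (0.898), DGKK (0.886) and PLK4 (0.876), ARID3A most like GRHL1 (0.894), DICER1 (0.836) and SIPA1L2 (0.833), and LIN28B most like GREB1 (0.765), PLA1A (0.744) and RIPOR3 (0.728). These values are a description over libraries that share their days, with no test.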

How the data were processed

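Poly(A) RNA of whole fetal brain was sequenced in 18 libraries, and the authors deposited raw counts per gene and per exon. The submitters' processing notes name FastQC, Trimmomatic, HISAT2 and featureCounts, and the build Sscrofa11.1; whether counting used strand is not given in the sources used here. Of 22 count columns, 4 were second runs and were added to the first; comparing both runs gave chi-square values of 1.61 to 1.67 for each degree of freedom, against 8.07 or more between replicates. The lengths deposited beside the counts gave CPM per kilobase. A table per transcript was not used.

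Genes were filtered with edgeR 4.0.16 (filterByExpr by group), which kept 16325 genes with 99.93% of counts, scaled by TMM, and tested with the quasi-likelihood F test in 1 model of 6 groups, with Benjamini-Hochberg adjustment over all genes and a threshold of 0.05. Standard errors came from the F statistic. CPM used TMM-scaled library sizes. The exon counts were fitted alike. Code was tested on simulated data. Alternatives were the edgeR likelihood ratio test, DESeq2 1.42.0, other scalings and filters, limma 3.58.1 voom with litter as a block, litter sums, litter as a fixed block for the sexes (chosen after seeing the data), subsets of groups and leaving out libraries. Sequences were read with pysam 0.24.0 from the RefSeq genome of the same build.

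The genes, the lists and the cell markers were chosen with earlier results of these data known. All 9 genes are named; of each list, at most the 3 largest rises and 3 largest falls called between GDs 45 and 90 are named, and DICER1 was added for its role. Seed matches in ARID3A and a listed gene are not reported here. Fetuses are separate animals, but litter mates share a dam. Correlations between the deviations of litter mates ran from -0.093 to 0.424.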

Additional observations from a re-analysis of the deposited data

Results flagged for a closer look

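The level of each gene was examined on each day for a fetus far from the other 5, over 24 groups of 6 fetuses in which the gene had at least 10 counts; chance marks about 1 in 20 such groups. 1 stood apart. IGF2BP2 in the female of GD60 from the litter of 8 was 57.8 CPM, where the next highest fetus of the day had 47 CPM, and the gap was 0.643 of the range of the day. Without this library, IGF2BP2 was still lower on GD60 than on GD45 (log2 fold change -0.81, edgeR adjusted p = 7.04e-05). The cause was not tested.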

How the results depend on the processing

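Each count of genes called between days was recomputed under 28 or 29 alternatives, and 186 of 199 recounts stayed within 1.5 times, as did 9 of 9 recounts of exons. Of 145 recounts for the sexes and their interaction, whose counts were 0, 143 stayed at 0, which says little of stability. Requiring an absolute log2 fold change above 1 left 2 genes between GDs 45 and 60, 0 in females and 1 in males. The count in males between GDs 45 and 60 (2) was the least stable: 4 by the likelihood ratio test, 5 by DESeq2, 0 with the groups compared alone and 1 without both fetuses of the GD45 litter of 8. Leaving out 1 library gave 1 to 4 there: 4 without the male of GD45 from the litter of 16, and 1 without the female or the male of GD45 from the litter of 17, the male of GD45 from the litter of 8, or the male of GD60 from the litter of 15 or of 8. The interaction between GDs 60 and 90 had 0 to 1 on leaving out a library and 1 (HMGA1) without both fetuses of the GD45 litter of 8. The share of all genes called in those fits was not counted. Of differences not called, LIN28B between GDs 60 and 90 turned to -0.057 with the voom fit and ran from -0.14 to 0.26 on leaving out a library, and ARID3A between GDs 45 and 60 from -0.22 to 0.022. TRIM71 between GDs 45 and 90 ran from 0.61 to 0.86 (edgeR adjusted p 0.0183 to 0.0977). The falls of HMGA1, HMGA2, IGF2BP1 and IGF2BP2 passed the threshold under all alternatives run, the fold threshold aside, for all 3 comparisons of days. The causes were not tested. Few counts limit LIN28A, LIN28B and TRIM71, and IGF2BP1 on GD90.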
